A study of Mus musculus with 24 samples.

Results

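The genes described here were the 9804, of 20409 present in both tables, for which WT vehicle slices had a mean raw count of at least 50 among the ribosome-protected fragments (RPFs) and also among the RNA reads. Each gene was described by its translational efficiency (TE), the log2 of its CPM (counts scaled to library size) in RPF minus that in RNA. A TE of 0 means that a gene took the same share of the RPF library as of the RNA library, and a TE of 1 means a share that was 2-fold larger. The WT vehicle slices came from male WT littermates 28 to 42 days old, were kept for 5 min in artificial cerebrospinal fluid (ACSF, the vehicle) and were then treated with cycloheximide at 100 µg/ml, which holds ribosomes on the mRNA. CA3 had been removed according to the study's methods, slices of several mice were pooled into each lysate, and the RPF and RNA libraries with the same replicate number came from the same lysate. There were 3 such pairs. The study held 24 libraries in 8 groups of 3, and the other 3 conditions, used at the end of this section, were WT slices given the mGluR agonist DHPG at 100 µM for 5 min and slices of Tsc2+/- mice given vehicle or DHPG. Tsc2+/- mice lacked an allele of Tsc2 in every tissue, through a CMV-Cre deletion passed on in the germline, and all slices received cycloheximide.

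The 3 RPF libraries of WT vehicle held 5296006 to 7914993 counts and the 3 RNA libraries 14801679 to 24067838. RPFs had been counted over the coding sequence without the first and last 30 bases, and RNA reads over the whole transcript of poly(A)-selected RNA. A long untranslated region therefore adds to the RNA count of a gene but not to its RPF count. For this reason a second value, the TE per length, divided each count by the length over which it was counted, and was centred so that the gene with the median length ratio kept its value. The lengths came from 1 annotated transcript a gene, chosen for its long coding sequence and not for its expression. An annotated UTR that is not used in the slices would raise the TE per length. Of non-zero counts, 48.2% were even in RPF replicate 1 but 97.9% and 98.5% in RPF replicates 2 and 3, so replicate 1 differed from the others in the pattern of its counts. The labelled tissue was checked on marker genes. Of the 5 CA1 genes, Wfs1, Fibcd1, Mpped1 and Pex5l stood at 286 to 710 CPM in the RNA libraries and Dcn at 48.8 to 68.3 CPM. Of the 5 CA3 genes, Bok, Iyd and Coch stood at 0.342 to 20.4 CPM, but Elavl2 at 44.1 to 48.9 and Nnat at 455 to 566 CPM. Of the 5 dentate gyrus genes, Prox1, Dsp, C1ql2 and Tdo2 stood at 0.708 to 22.9 CPM and Calb1 at 118 to 126 CPM, and the 5 choroid plexus genes at no more than 0.385 CPM.

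By way of background, the number of footprints on an mRNA depends on how often ribosomes start on it and how long each takes to read through. A cell can set the starting rate of a class of mRNAs through its 5′ untranslated region (UTR). The terminal oligopyrimidine (TOP) motif, a C followed by pyrimidines at the very 5′ end of the mRNAs of ribosomal proteins and elongation factors, places them under mTOR, the kinase that TSC2 restrains. The iron-responsive element, a hairpin with a CAGTG loop in the 5′ UTR of ferritin mRNAs, is held by iron regulatory proteins when iron is scarce. Reading frames upstream of the main start codon, as in Atf4, capture scanning ribosomes. A high TE can thus come from frequent starts or from slow reading.

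TE spread widely over the members. Its median was 0.06, the quartiles were -0.70 and 0.72, and the 5th and 95th percentiles were -1.97 and 1.58. The spread between the 3 pairs was small beside this, with a median SD of 0.20, and the TE of a pair correlated with that of another pair across the 9804 genes at Pearson's r of 0.928 to 0.958, where genes are not independent replicates. By edgeR's quasi-likelihood F test with the lysate as a block, 1626 members (16.6%) were high, with at least 2-fold more RPF than RNA at an adjusted p under 0.1, where 15.9% of all 11910 genes tested were. Another 1750 members (17.8%) were low, where 19.5% of all genes tested were. The members made up most of the genes tested, so these shares had to lie close together. The p alone was passed by 7964 members (81.2%), which is why the 2-fold limit was added, and 8297 (84.6%) had the same sign in all 3 pairs. Per length, 2029 members (20.7%) were high, where 19.5% of the 11876 genes tested were, and 1485 (15.1%) were low, where 16.6% were. The counts of high and low genes given for each list below stand beside these shares of all members, on CPM or per length. The high calls of both scales shared 1040 genes, which was 63.96% of the first list and 51.3% of the second. The low calls shared 1058 genes, 60.5% and 71.2%, and 36 members were called low on CPM but high per length. RPF and RNA levels themselves correlated at r = 0.797 across members (Spearman's rho 0.777).

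**Figure D1:**
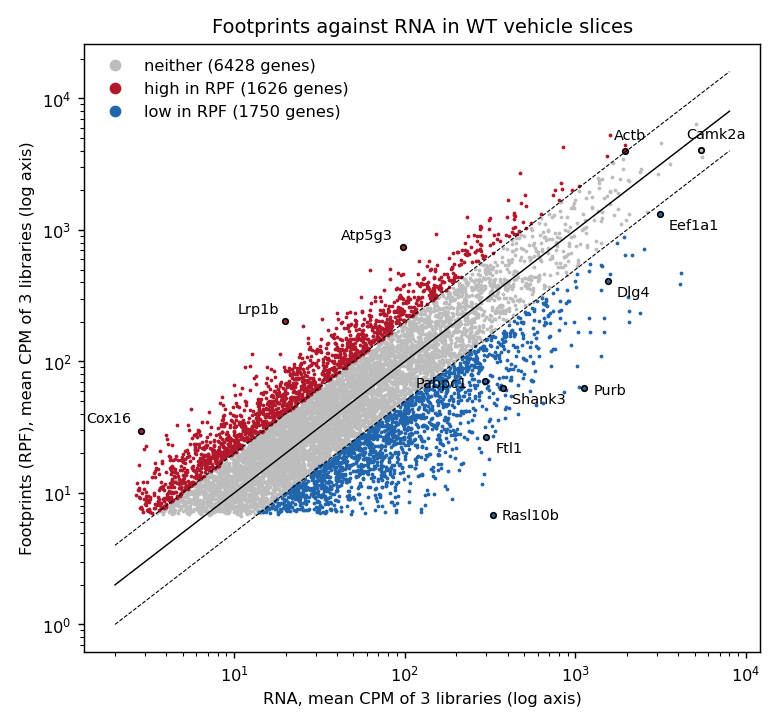
Mean CPM of the 3 RPF libraries (y axis, log) against mean CPM of the 3 RNA libraries (x axis, log) for the 9804 members in WT vehicle, coloured by call, with a solid line at equal CPM and dashed lines at 2-fold. The 1750 low genes reach into the highest RNA levels, as Dlg4 and Eef1a1 show, while the members with the lowest RNA, such as Cox16, are mostly high or neither. A gene with little RNA could enter only with enough RPF, so the latter is in part fixed by how the members were defined.

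The 12 members with the highest TE included 4 subunits of oxidative phosphorylation. Ndufb2, a small subunit of complex I, had 106, 135 and 101 RPF CPM against 13.8, 10.6 and 13.8 RNA CPM, a TE of 3.17 ± 0.14 (SE of the fit, edgeR adjusted p = 1.13e-113) and 8.99-fold more RPF. Atp5g3, which encodes the c subunit of ATP synthase, had 645, 834 and 757 RPF CPM against 94.5, 91.4 and 105 RNA CPM, a TE of 2.94 ± 0.12. The complex I subunits Ndufc1 and Ndufb6 reached 2.91 and 2.88. In each of these genes every RPF library lay above every RNA library. The highest of all was Cox16, an assembly factor of cytochrome c oxidase, with 31.8, 30.98 and 26.7 RPF CPM against 2.71, 2.44 and 3.34 RNA CPM (TE 3.40 ± 0.20, 10.6-fold). Only 15.1% of the annotated Cox16 transcript is coding, so per length its TE was larger still, 5.42 ± 0.20. Whether the slices use this transcript was not tested. Lrp1b, a very large receptor of the LDL receptor family, came next with 179, 217 and 214 RPF CPM against 20.6, 21.8 and 17.2 RNA CPM (TE 3.36 ± 0.14).

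The other genes among the 12 highest were of mixed function. Slirp, a mitochondrial RNA-binding protein, had a TE of 3.00, the G protein subunit Gng11 of 2.90, the leukocyte phosphatase Ptprc of 2.86 and 1110058L19Rik of 2.83. Hist1h1c, a linker histone, had 121, 84.7 and 68.6 RPF CPM against 12.5, 9.50 and 12.7 RNA CPM (TE 2.95 ± 0.14). Snrpn, a spliceosome protein of neurons, had 495, 511 and 471 RPF CPM against 65.4, 54.1 and 67.0 RNA CPM (TE 2.99 ± 0.12), but 0% of the 30-base windows of its coding sequence are unshared with another gene of the annotation, so its reads could have been split between genes.

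The 12 lowest members lay farther from 0 than the 12 highest. Rasl10b, a small GTPase of the Ras family, had 8.97, 7.87 and 3.71 RPF CPM against 341, 346 and 294 RNA CPM, so that RNA exceeded RPF 47.3-fold (TE -5.56 ± 0.16, edgeR adjusted p = 7.87e-247). Map3k10, a kinase upstream of JNK, followed with 14.8, 10.8 and 9.65 RPF CPM against 278, 303 and 271 RNA CPM (TE -4.59 ± 0.15, 24.1-fold). Purb, which binds single-stranded nucleic acid, had 74.98, 52.5 and 60.5 RPF CPM against 1288, 1127 and 967 RNA CPM (TE -4.18 ± 0.12). In these 3 genes the lowest RNA library was at least an order of magnitude above the highest RPF library. Slc25a23, a calcium-regulated carrier of ATP into mitochondria, had 67.2, 56.3 and 68.6 RPF CPM against 1004, 1136 and 1023 RNA CPM (TE -4.05 ± 0.12). The others were Baalc (-4.39), BC005537 (-4.38), Fam163b (-4.12), the deubiquitinase cofactor Atxn7l3 (-4.10), the kinesin Kif1c (-4.04), the ubiquitin ligase subunit Gid4 (-4.02), 1700025G04Rik (-4.02) and the sialyltransferase St6galnac6 (-3.92). Per length, Map3k10 was the lower of the first pair, at -5.19 ± 0.15 against -3.92 ± 0.16 for Rasl10b. The low value of 1700025G04Rik was not kept per length (-0.03 ± 0.16), where only 3.75% of the transcript is coding.

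**Figure D2:**
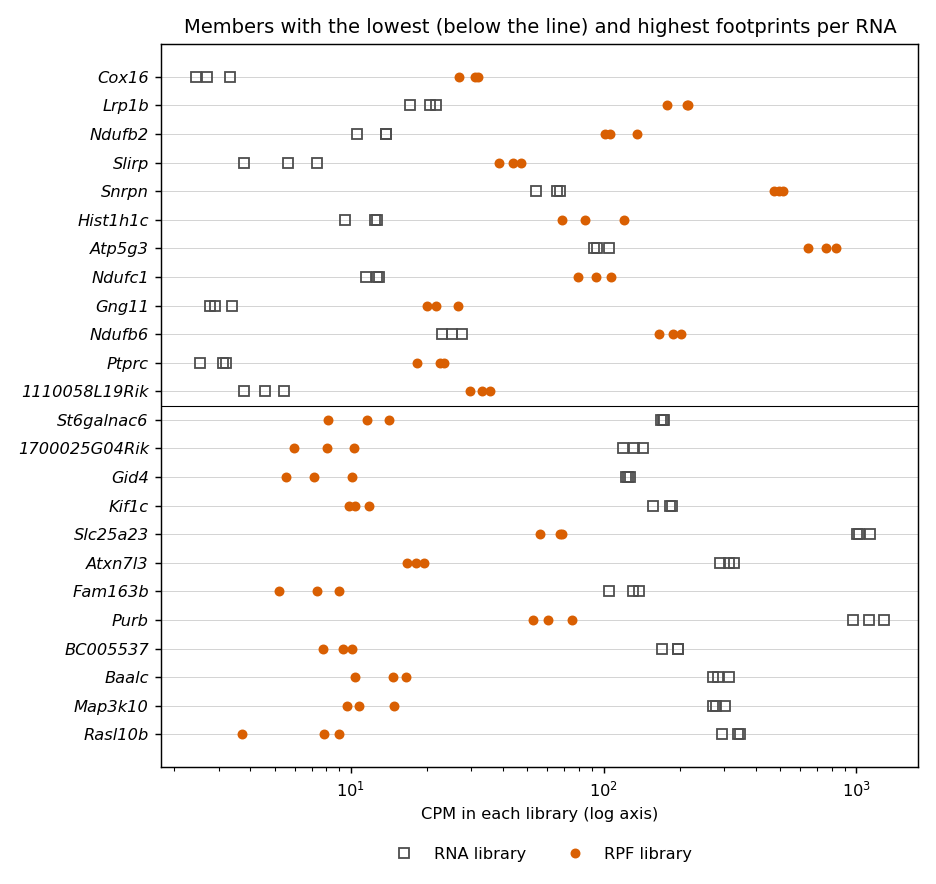
CPM in each of the 3 RPF libraries (filled circles) and 3 RNA libraries (open squares) of WT vehicle, on a log axis, for the 12 members with the lowest TE (below the line) and the 12 with the highest (above it). RPF and RNA libraries do not overlap in any of the 24 genes, and the gap is widest for Rasl10b.

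The bases around the start codon are shown for both ends of the range, because a purine at position -3 and a G at +4 (counted from the A of ATG as +1) are the features of a strong start. In these RefSeq transcripts the capitals mark position -3 and the ATG with the base after it. The first 4 lines are high members and the last 4 are low ones.
Cox16: ccttctGccATGAtt
Lrp1b: aagatcAtcATGTcc
Ndufb2: cttgctAgtATGTct
Slirp: cgttttAacATGGca
Rasl10b: gcgggaGgcATGGtc
Map3k10: ccctccCccATGGag
BC005537: tatttcAaaATGGgg
Purb: gccgagAagATGGcg
All 12 of the highest members had A or G at -3, and 7 of the 11 lowest members with a usable 5′ UTR did, the exceptions being Map3k10, Fam163b, Atxn7l3 and St6galnac6. G at +4 went the other way, with 3 of the 12 highest and 7 of these 11 lowest. Over all members with a usable 5′ UTR, 8484 (87.0%) had A or G at -3, against 91.8% of the high and 82.4% of the low members, and 52.8% had G at +4, against 52.6% and 49.2%. The median TE was 0.14 in the 4488 members with a purine at -3 and G at +4, 0.06 in the 3996 with the purine alone, -0.22 in the 656 with G alone and -0.18 in the 608 with neither. Per length the order of the first pair against the second pair was the same (0.20 and 0.19 against -0.09 and -0.04). Upstream ATG triplets were not spread evenly over the extremes either. BC005537 has 19 of them in its 5′ UTR, Rasl10b 5 and Map3k10 3, while Cox16, Ndufb2 and Slirp have 0 and Lrp1b has 4.

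Genes of the iron switch described above were looked at next, though iron itself was not varied in these slices. Ftl1, the ferritin light chain (chr7:45457944-45459886, minus strand, GRCm38), had 29.8, 25.6 and 25.2 RPF CPM against 278, 287 and 334 RNA CPM. RNA exceeded RPF 11.1-fold (TE -3.47 ± 0.14, edgeR adjusted p = 3.27e-135), and the value per length was the same within its error (-3.50). Of its coding 30-base windows only 10.6% occur once in the genome, and of the 75-base windows of its transcript 32.7% do. The coding windows are 100% unshared with other genes of the annotation, which does not cover copies elsewhere in the genome. The authors kept uniquely mapped RPFs, and the part of this in the level of Ftl1 was not tested. Epas1, a hypoxia-inducible factor whose mRNA is also known to bind iron regulatory proteins, had 39.8, 34.7 and 37.1 RPF CPM against 407, 410 and 337 RNA CPM (TE -3.37 ± 0.13, 10.3-fold). Its coding windows were unique in the genome to 98.5%, and no match was found in its RefSeq 5′ UTR. Thus 2 of the 3 members listed as having a 5′ element were low by over 10-fold. The elements are shown in the 5′ UTR with the loop CAGTG in capitals, for the low members that matched.
Ftl1, bases 80 to 109: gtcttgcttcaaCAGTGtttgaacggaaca
Ppp1r1b, bases 577 to 606: tgggtgcggggaCAGTGctcctcctcctcc
The search asked for C, any 5 bases, CAGTG, then A, C or T, with all 5 bases on each side of the loop able to pair, on the sense strand, and it found 7 of 9767 members (0.0717%). Their median TE was -0.78, and 2 of the 7 were low and 0 high. CAGTG alone stood in the 5′ UTR of 2211 members (22.6%), and their median was -0.02. Ppp1r1b encodes DARPP-32 and had a TE of -1.14.

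The mRNAs of the translation machinery were split. The 78 cytosolic ribosomal proteins had a median TE of -0.12 ± 0.21 (SD of the 3 pair medians), and 10 of them were high and 10 low, and as a class they took shares of both assays that differed by less than their spread: 0.998% ± 0.057 (SD, n = 3) of RPF and 1.04% ± 0.124 of RNA counts. The pairs differed, at -0.04, 0.11 and -0.31. The range inside the class was wide, from Rps26 with 17.8, 17.2 and 19.3 RPF CPM against 85.9, 85.4 and 129 RNA CPM (TE -2.43 ± 0.14) to Rpl36al with 118, 117 and 93.7 against 25.7, 27.2 and 32.1 (TE 1.95 ± 0.13). Rplp0, of the ribosomal stalk, had 95.5, 95.4 and 79.8 RPF CPM against 175, 181 and 224 RNA CPM and was low (TE -1.09 ± 0.12). Rpl4 stood at -0.50 ± 0.11 and Rpl3, with the most RNA of the class, at -0.68 ± 0.11. Processed pseudogenes cover this class: in the median ribosomal protein gene 2.35% of coding windows occur once in the genome, though 100% are unshared with annotated genes, and the authors kept uniquely mapped reads. The part of this in the levels was not tested. The 17 elongation factors and other TOP mRNAs had a median of 0.24 with 2 high and 3 low, and of -0.13 per length with 3 high and 6 low. In the median gene of this list 47.7% of coding windows occur once in the genome, and in 1 of the 17 at least 95% do. The share was 11.5% in Eef1a1 and 28.9% in Btf3, and the part of this in their levels was not tested either. Eef1a1, which delivers aminoacyl-tRNA to the ribosome, had 1225, 1370 and 1361 RPF CPM against 3092, 3015 and 3264 RNA CPM (TE -1.25 ± 0.10). Pabpc1, the cytoplasmic poly(A)-binding protein, had 60.8, 68.4 and 84.96 against 319, 277 and 285 (TE -2.05 ± 0.13, 4.15-fold more RNA). Eef2, which moves the ribosome along, stood at -0.68 ± 0.10, and Btf3, a subunit of the nascent chain complex, was high at 1.42 ± 0.12. The values of Eef1a1, Pabpc1, Eef2 and Rpl4 lay further from 0 per length (-1.82, -2.45, -1.39 and -1.26). Adjusting for coding GC content and length together, an alternative chosen after seeing the data, moved the median of the ribosomal proteins to -0.94 and that of the other TOP mRNAs to -0.75, so how low the TOP class stood depended on whether genes of like length were compared.

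The first bases of 4 TOP transcripts are given with the pyrimidine run in capitals. Pabpc1 and Rps6, the phosphorylated protein of the small subunit, are well known, and Rpl38 and Rpl14 were chosen after their values were seen, as the high and the low call among the ribosomal proteins with a run.
Pabpc1: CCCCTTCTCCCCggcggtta
Rps6: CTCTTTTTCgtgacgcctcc
Rpl38: CTTTCCCCgttctcttcggt
Rpl14: CTTCTCgctgagcgccgcca
Their TE was -2.05, 0.06, 1.44 and -1.62 in this order, so a run at the 5′ end went with values on both sides of 0. A C followed by pyrimidines with a run of at least 5 opened the RefSeq transcript of 226 members (2.31%). Their median TE was 0.14 (33 high, 37 low), against 0.06 in the 9541 without it. Only 13 of the 78 ribosomal protein members had the run in the annotation, and their median was 0.06, so the annotated transcript of most of this class does not open with the motif.

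The mRNAs of the energy and protein turnover machinery were high as classes. Of 35 proteasome subunits 25 were high and 0 low, with a median TE of 1.52 ± 0.08 and all 35 above 0. Psmd6, a subunit of the regulatory lid, had 190, 225 and 215 RPF CPM against 42.6, 36.2 and 43.5 RNA CPM (TE 2.37 ± 0.13, 5.16-fold). Psmd3 was the lowest, with 135, 141 and 132 against 128, 134 and 134 (0.04 ± 0.12, adjusted p = 0.781). Complex I subunits and assembly factors had a median of 1.30 ± 0.14, with 29 of 44 high, 0 low and all 44 above 0. Their range ran from 0.24 ± 0.15 in the assembly factor Ndufaf4 to 3.17 in Ndufb2. The 41 members of complexes II to V followed with a median of 1.10, 22 high and 3 low. The core enzyme subunit Atp5b, the most abundant of them, had 2271, 2056 and 2143 RPF CPM against 1013, 1030 and 1126 RNA CPM (1.03 ± 0.10). The low ones were named as cytochrome c oxidase subunits, Cox7c (-3.13), Cox7a2l (-1.69) and Cox8a (-1.18). Cox7c had 5.59, 10.6 and 15.2 RPF CPM against 83.01, 85.8 and 93.1 RNA CPM, and 0% of its coding windows occur once in the genome. Mitochondrial ribosomal proteins stood lower at 0.49 ± 0.20 (27 of 77 high, 0 low), and mitochondrial solute carriers at -0.34 (4 high, 7 low of 28). Per length the former stood at 0.78 and the latter at 0.32 (2 high, 3 low), so the side on which the carriers lay depended on the scale. Glycolysis and TCA cycle enzymes had a median of 0.62 (11 high, 0 low of 33), with Mdh1 (cytosolic malate dehydrogenase) at 2.07 and Aldoa (aldolase) at 0.62.

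Chaperones and chaperonins had a median of 0.80, 27 high and 4 low of 60. Hspa5, the chaperone of the endoplasmic reticulum, had 1242, 1209 and 1295 RPF CPM against 241, 215 and 237 RNA CPM (TE 2.44 ± 0.11, 5.41-fold), and Hspa8, the abundant cytosolic form, had 4267, 4354 and 4595 against 1925, 1869 and 2096 (1.17 ± 0.09). Per length Hspa8 was not called (0.32). Splicing factors and hnRNPs were high in 25 of 53 with 1 low, Srsf4 (-1.0), and a median of 0.96. The abundant Hnrnpk had 1009, 1093 and 1075 RPF CPM against 288, 274 and 279 RNA CPM (TE 1.92 ± 0.11). The DEAD and DEAH box helicases had a median of 0.36 (12 high and 0 low of 45), led by Ddx20 at 1.95, and translation initiation factors of 0.31 (10 high and 5 low of 48), from Eif3m at 1.94 to Eif5a2 at -1.63. Per length both fell under the median of all members, the helicases at 0.04 (5 high and 7 low) and the initiation factors at 0.03 (11 high and 5 low). The proteasome, complex I, complexes II to V and splicing lists stayed high per length, with medians of 1.06, 1.36, 1.0 and 1.17, but with coding GC content and length adjusted together the medians came to 0.26, 0.61, 0.37 and 0.60. The chaperones stood at 0.77 per length but at 0.37 with GC content adjusted and 0.15 with both adjusted, and the mitochondrial ribosomal proteins at 0.07 with both adjusted.

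**Figure D3:**
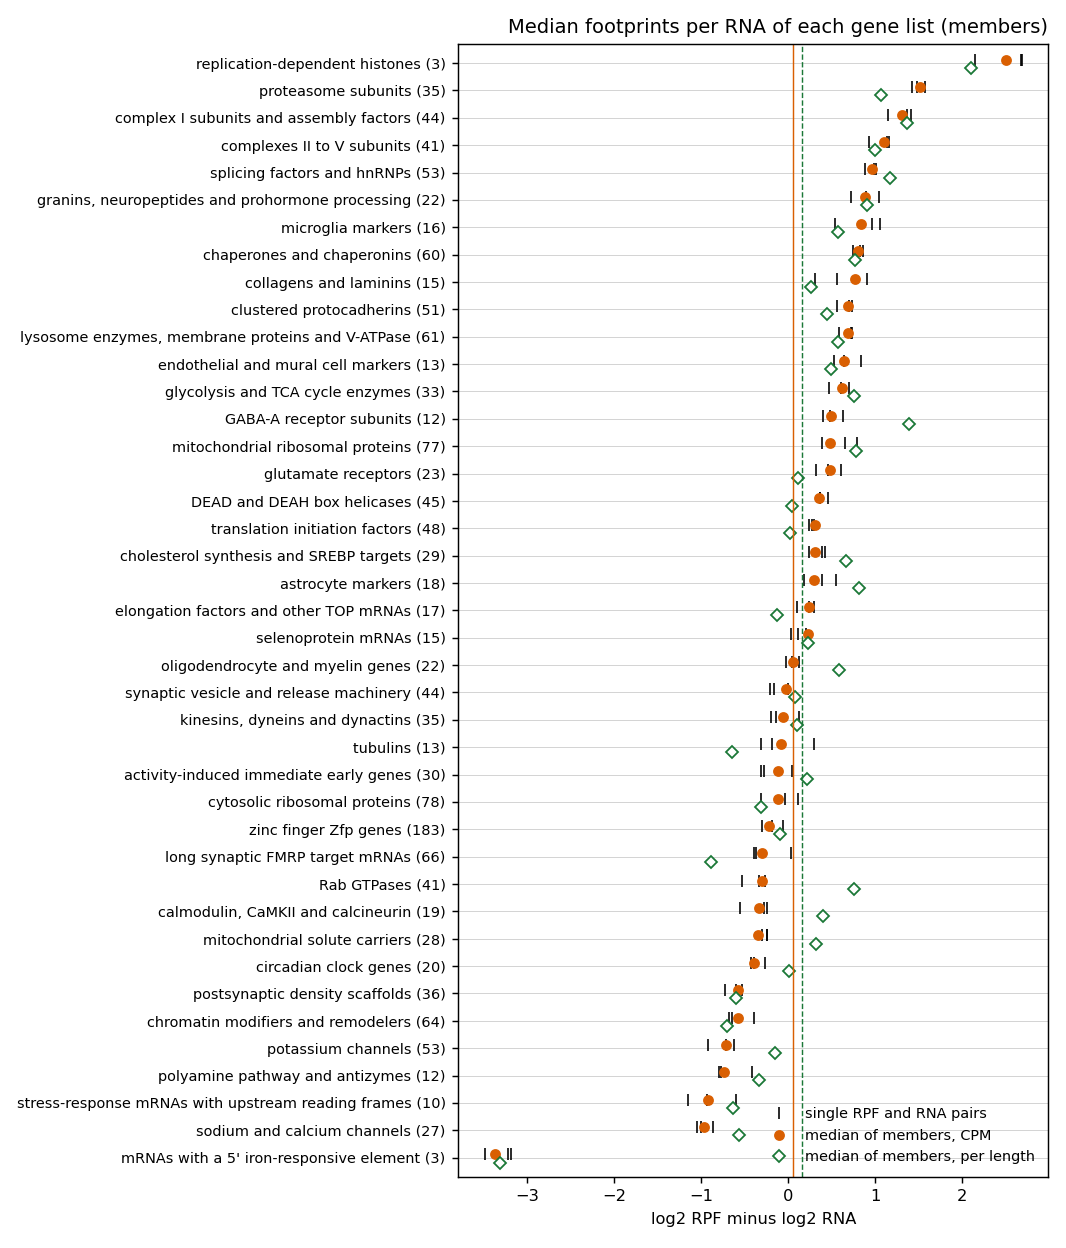
Median TE of the members of each of the 41 gene lists on CPM (filled circles) and per length (open diamonds), with the 3 single pairs as ticks and the number of members in brackets. The vertical lines are the medians of all members, 0.06 on CPM and 0.16 per length, and lists run from the 5′ iron-responsive element genes at -3.36 to the 3 histones at 2.50.

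At synapses, scaffolds and channels lay at the low end on CPM. The 36 postsynaptic density scaffolds had a median TE of -0.57 ± 0.10, with 15 low and 1 high, and kept it per length (-0.60) and with GC content adjusted (-0.74). With GC content and length adjusted together it was -0.42. Dlg4, which encodes PSD-95, had 407, 374 and 442 RPF CPM against 1492, 1575 and 1580 RNA CPM (TE -1.93 ± 0.11, 3.81-fold more RNA). Shank3, a master scaffold under it, had 74.9, 55.1 and 59.7 against 411, 400 and 320 (TE -2.58 ± 0.13), and Agap2, a GTPase-activating protein, had 285, 211 and 201 against 2509, 2535 and 2149 (TE -3.38 ± 0.11). Dlgap3, which links PSD-95 to Shank proteins, stood at -3.21 ± 0.13. RNA exceeded RPF in every library of these scaffolds. The single high one was Cnksr2, with 705, 785 and 817 RPF CPM against 328, 331 and 289 RNA CPM (TE 1.28 ± 0.11). The low values stood per length too, at -2.44, -3.13, -3.70 and -3.67 for Dlg4, Shank3, Agap2 and Dlgap3. The coding sequences of Shank3, Agap2 and Dlgap3 have 64.6%, 62.9% and 64.8% GC.

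Sodium and calcium channel subunits had a median of -0.97 ± 0.09, with 13 low and 1 high of 27. It was -0.56 per length and -0.36 with GC content and length adjusted together. Scn8a, the most abundant, had 373, 355 and 388 RPF CPM against 524, 555 and 503 RNA CPM (-0.50 ± 0.11), and the list ran from Cacng7, an AMPA receptor auxiliary subunit, at -2.01 to the calcium channel subunit Cacna2d3 at 1.05. Potassium channels had a median of -0.71 (21 low, 5 high of 53), with Kcnk9, a leak channel, the highest at 2.17. Their median per length was -0.15, nearer to that of all members. With GC content and length adjusted together it was -0.02, beside 0.002 for all members, so their low place depended on the scale. Glutamate receptors had a median of 0.49 with 6 high and 3 low of 23, but of 0.11 per length, under the 0.16 of all members, with 6 high and 5 low. Gria2, the AMPA receptor subunit that keeps calcium out, had 1380, 1566 and 1613 RPF CPM against 568, 503 and 463 RNA CPM (TE 1.57 ± 0.10). Grin2b, an NMDA receptor subunit, had 427, 420 and 439 against 151, 147 and 144 (TE 1.54 ± 0.12), while Gria1 had 1352, 1295 and 1452 against 1490, 1390 and 1395 and did not differ (-0.06 ± 0.10, adjusted p = 0.579). The kainate receptor subunit Grik5 was the lowest at -2.97. Among the 12 GABA-A receptor subunits, with a median of 0.50, Gabrb1 had 193, 208 and 236 RPF CPM against 38.8, 32.6 and 26.8 RNA CPM (TE 2.70 ± 0.13), with 5 high and 1 low in the list. Per length the TE of Gabrb1 was 5.08 ± 0.14, with an annotated 3′ UTR of 12763 bases whose use in the slices was not tested.

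Among presynaptic and calcium signalling genes the scale mattered. Synaptic vesicle and release genes had a median of -0.03 (1 high and 10 low of 44), and of 0.08 per length (5 high and 6 low). Snap25, a SNARE of vesicle fusion, had 2228, 2645 and 2454 RPF CPM against 1781, 1807 and 1892 RNA CPM (0.42 ± 0.10), and Slc17a7, the vesicular glutamate transporter, had 749, 677 and 708 against 2360, 2742 and 2487 (-1.83 ± 0.10). Cplx2, a regulator of fusion, had 280, 236 and 207 RPF CPM against 2208, 2145 and 1837 RNA CPM (TE -3.11 ± 0.11). Only 7.98% of the Cplx2 transcript is coding, and per length its TE was -0.24 ± 0.10. Camk2n1, an inhibitor of CaMKII, behaved in the same manner, with a TE of -2.95 ± 0.12 on CPM and 0.39 ± 0.12 per length, at 6.56% coding. Camk2a, with the most RNA in its list, had 4775, 3624 and 3733 RPF CPM against 5643, 5710 and 4914 RNA CPM (-0.43 ± 0.09). The list of calmodulin, CaMKII and calcineurin had a median of -0.33 on CPM and 0.40 per length, with 0 high and 5 low of 19 on the first scale and 5 high and 0 low on the second. The Rab GTPases turned likewise, from a median of -0.30 (4 high and 8 low of 41) to 0.76 (18 high and 1 low). For these lists the direction therefore depended on whether the UTRs were counted, and no direction is given.

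The 66 long synaptic mRNAs listed as targets of FMRP, the fragile X protein that is known to slow ribosomes, had a median of -0.30 ± 0.24 with 2 high and 16 low, and -0.88 per length with 2 high and 30 low. On CPM the pairs stood at -0.40, -0.37 and 0.04, a spread close to the value itself. These mRNAs are long, and over all members the TE per length fell with coding length. With GC content and length adjusted together the median of the list was -0.30 (pairs -0.34, -0.32 and -0.16). Map1a had 2497, 1964 and 2752 RPF CPM against 2001, 2208 and 1926 RNA CPM (0.22 ± 0.10), Map2 stood at -0.13 ± 0.10 (adjusted p = 0.25) and Tsc2 itself, which is on the list, had 133, 122 and 135 against 199, 202 and 191 (-0.60 ± 0.12, and -1.37 per length). Fmr1 stood at 0.32 ± 0.13. Motor genes of the kinesin, dynein and dynactin families ranged from Dync1i2 at 1.93 to Kif1c at -4.04, with 7 high and 8 low of 35. Kif5a, the axonal kinesin heavy chain and the most abundant, had 471, 431 and 506 RPF CPM against 4102, 4567 and 3886 RNA CPM (TE -3.16 ± 0.10, 8.91-fold more RNA). The 13 tubulins had a median of -0.08 with 2 high and 3 low. They are a near-identical family, in which Tuba1b (-2.98) has only 8.29% of its coding windows unshared, and their values are uncertain.

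Among nuclear regulators, chromatin modifiers and remodelers had a median of -0.57, with 22 low and 3 high of 64, which stayed at -0.57 with GC content adjusted and -0.55 with GC content and length adjusted. Chd3, a helicase of the NuRD complex, had 189, 146 and 171 RPF CPM against 1242, 1315 and 1081 RNA CPM (TE -2.85 ± 0.11), Tet3, a methylcytosine oxidase, stood at -2.97 and Hdac2, a histone deacetylase, was high at 1.16. Circadian clock genes had a median of -0.39 (6 low, 0 high of 20) and of 0.01 per length (2 low, 1 high), with Csnk1e, the kinase of the period proteins, at -1.71. The 183 zinc finger genes had a median of -0.22 with 21 high and 35 low, or 11.5% and 19.1% beside 16.6% and 17.8% of all members. Immediate early genes had a median of -0.12 with 2 high and 3 low of 30, and of 0.22 per length with 6 high and 0 low. Egr1 had 320, 334 and 292 RPF CPM against 359, 362 and 313 RNA CPM (-0.13 ± 0.11, adjusted p = 0.292), and Arc had 87.1, 74.5 and 76.1 against 89.1, 101 and 98.7 (-0.28 ± 0.12).

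Stress-response mRNAs with upstream reading frames were the most mixed. The median of the 10 members was -0.92, with 4 low and 3 high. Atf4, the transcription factor of the integrated stress response, had 39.4, 30.7 and 37.8 RPF CPM against 162, 166 and 204 RNA CPM (TE -2.30 ± 0.13, 4.92-fold more RNA), and Ppp1r15a, the stress-induced phosphatase subunit GADD34, had 11.7, 8.61 and 13.4 against 70.1, 76.6 and 86.7 (TE -2.81 ± 0.15). Both have 3 upstream ATG triplets. Cebpb had 26.4, 19.9 and 16.3 RPF CPM against 3.40, 4.66 and 2.93 RNA CPM (TE 2.48 ± 0.20). The other high ones, Tars and Eprs, are tRNA synthetases at 1.52 and 1.41, and were named after their values were seen. The polyamine pathway had a median of -0.74 with 0 high and 2 low of 12 (16.7% low, beside 17.8% of all members). Odc1, its first enzyme, stood at -1.09 ± 0.13 with 47.7, 60.2 and 64.2 RPF CPM against 118, 112 and 135 RNA CPM, and Amd1 at -1.78, where 0% of the coding windows occur once in the genome.

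Genes of single cell types differed. Microglia markers had a median of 0.83 (pairs 1.06, 0.96 and 0.54), with 6 high and 0 low of 16, and endothelial and mural markers of 0.64. Per length these lists stood at 0.57 (5 high and 0 low) and 0.49 (4 high and 0 low). Astrocyte markers stood above both on that scale, so the order of the cell types depended on the scale. Ctss, a microglial protease, had 171, 163 and 125 RPF CPM against 37.4, 38.8 and 37.8 RNA CPM (TE 2.0 ± 0.13), while Csf1r stood at 0.55. Astrocyte markers had a median of 0.30 with 1 high and 0 low of 18, and of 0.82 per length with 7 high and 0 low. Slc1a2, the glial glutamate transporter, had 3926, 3651 and 3129 RPF CPM against 6183, 5868 and 4562 RNA CPM (-0.63 ± 0.09), and Gfap 435, 348 and 276 against 568, 572 and 490 (-0.64 ± 0.11). Oligodendrocyte and myelin genes had a median of 0.06 with 3 high (13.6%) and 5 low (22.7%) of 22, but of 0.58 per length with 7 high and 1 low. They ran from Aspa at 2.29 to the transcription factor Myrf at -1.70, with Mbp at -1.38. In the CPM of bulk slices fewer cells of a type and less RNA per cell cannot be told apart. TE sets the assays of the same lysate against each other, and either would enter both assays. Granins, neuropeptides and their processing enzymes had a median of 0.88 with 9 high and 1 low of 22. Pcsk1, a prohormone convertase, stood at 2.53, Cpe, the carboxypeptidase, had 4813, 4598 and 4277 RPF CPM against 3227, 3261 and 3050 RNA CPM (0.52 ± 0.09), and Pcsk1n was low at -1.30. Lysosomal genes had a median of 0.68 (16 high and 3 low of 61), from the V-ATPase subunit Atp6v1h at 2.37 to the sulfatase Ids at -2.13. Clustered protocadherins had 0.69 with 14 high and 0 low of 51, but in the median gene of the list only 81.1% of coding windows are unshared.

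TE was lower in members with more GC in the coding sequence. From the quintile of lowest GC (35.6% to 47.2%) to that of highest GC (57.9% to 77.7%) the median TE went from 0.63 through 0.35, 0.08 and -0.21 to -0.61, and the number of low genes per quintile went from 127 to 716 while that of high genes went from 677 to 95. The correlation across the 9787 members with a coding transcript was rho = -0.416, and -0.457 per length. It was weaker in pair 1 (-0.274) than in pairs 2 and 3 (-0.458 and -0.484). RPF replicate 1 is also the library whose counts are not mostly even, and the library and its pattern of counts cannot be told apart. The trend with 3′ UTR length turned with the scale. By quintile of 3′ UTR length the median went from 0.63 to -0.50, but per length from 0.14 to 0.35, in the other direction. The value per length rests on annotated UTRs, and the part of this in the turn was not tested. Coding length ran downwards per length, with medians from 0.86 to -0.43. On CPM the medians went from 0.19 to 0.01, but the pairs did not share this. Pairs 1 and 2 went from 0.22 to -0.04 and from 0.26 to -0.06, while pair 3 went from 0.04 to 0.13.

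The GC content of the 5′ UTR and the number of ATG triplets in it held their direction on both scales, as coding GC content did. The former went with a median from 0.33 in its lowest quintile to -0.52 in its highest (0.42 to -0.40 per length). The latter went with medians of 0.27 in the 4952 members with 0, -0.05 in the 2083 with 1, -0.21 in the 985 with 2 and -0.32 in the 1747 with 3 or more, and per length of 0.35, 0.02, -0.07 and -0.11. Low genes made up 11.9%, 20.3%, 25.1% and 27.7% of these classes, and high genes 21.3%, 13.6%, 12.4% and 9.39%. Set side by side, the high members had a median 3′ UTR of 527.5 bases, a coding GC content of 48.2% and no upstream ATG in 64.9% of genes, and the low members 1912 bases, 56.8% and 33.8%. Low members also had more RNA, with a median of 86.9 CPM against 20.9 CPM in high members, but TE holds the RNA value itself, and a gene with little RNA could enter only with enough RPF, so this difference is in part fixed by how TE and the members were defined.

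**Figure D4:**
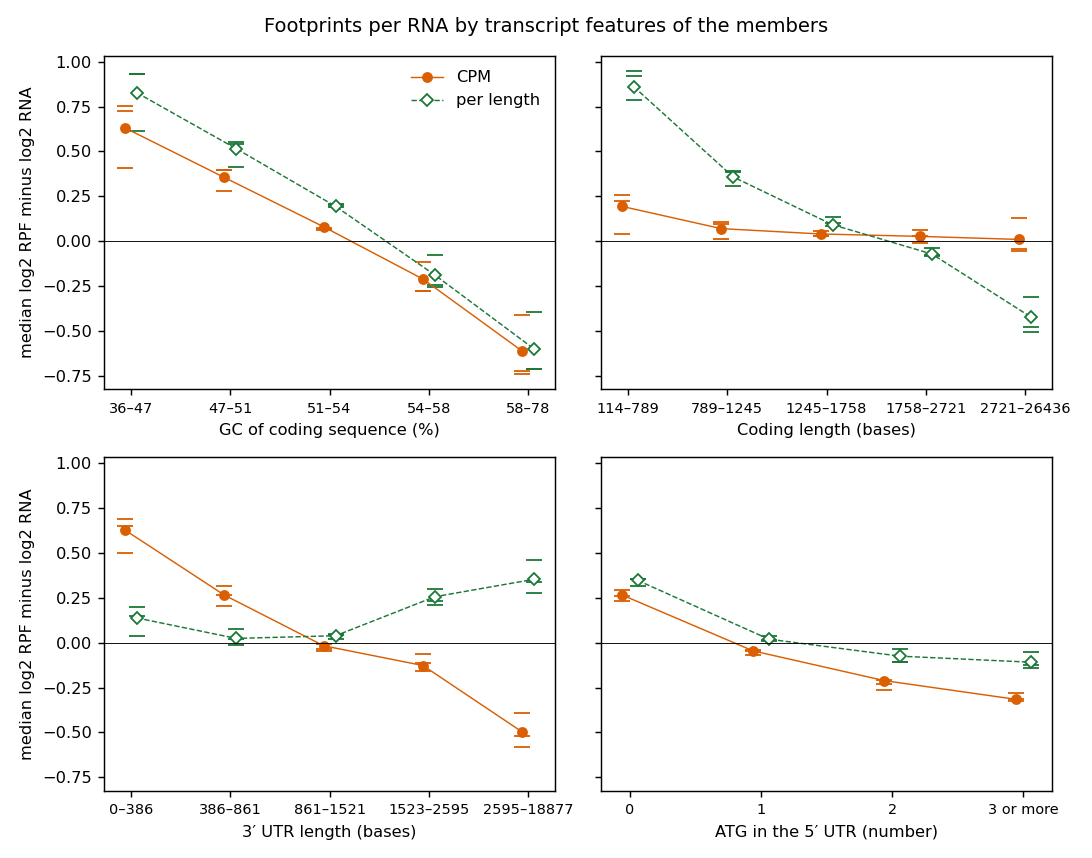
Median TE by quintile of coding GC content, coding length and 3′ UTR length, and by the number of ATG triplets in the 5′ UTR, on CPM (filled circles) and per length (open diamonds), with the 3 pairs as short ticks. GC content and upstream ATG run downwards on both scales, while 3′ UTR length changes direction. Coding length runs downwards per length, but on CPM only slightly and not in pair 3.

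Some genes with high counts in a single assay missed the limit in the other. RNA alone passed for 1960 genes, 122 of them with a mean RNA count of at least 500, and RPF alone for 45. The 5 RNA-only genes with the most RNA were 6030419C18Rik (44, 34 and 28 RPF counts against 3602, 6246 and 5078 RNA counts), Rpl41, Mllt6, Pou6f1 and Gdf1. Gdf1, a growth factor of the TGF-beta family, had 8, 4 and 4 RPF counts against 2460, 4159 and 3335 RNA counts. Rpl41 had 0 RPF counts in all 3 libraries against 2381, 4113 and 4376 RNA counts, and its coding sequence of 78 bases leaves no room for a footprint once 30 bases are taken off each end. The 5 RPF-only genes with the most RPF were all histones: Hist1h1e (981, 610 and 368 RPF counts against 15, 25 and 31 RNA counts), Hist1h4d, Hist1h4c, Hist2h2bb and Hist2h4. Replication-dependent histone mRNAs end in a stem-loop in place of a poly(A) tail, and the RNA libraries were poly(A)-selected. Only 3 of 64 histone genes were members, and their TE was 2.95 in Hist1h1c, 2.52 in Hist3h2a and 0.55 in Hist3h2ba, and 79.6% of the coding windows of Hist3h2a are unshared.

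TE in WT vehicle was set beside that of the other 3 groups. Across members, the mean TE of WT vehicle correlated at r = 0.987 to 0.989 with that of WT DHPG, Tsc2+/- vehicle and Tsc2+/- DHPG, each from libraries of its own. The proteasome list had medians of 1.5 ± 0.08 in WT vehicle, 1.63 ± 0.06 after DHPG in WT, 1.64 ± 0.03 in Tsc2+/- with vehicle and 1.66 ± 0.08 in Tsc2+/- with DHPG (SD, n = 3, all 24 libraries scaled together). The postsynaptic scaffolds stood at -0.61 ± 0.10, -0.61 ± 0.05, -0.67 ± 0.03 and -0.65 ± 0.09, and the ribosomal proteins at -0.08 ± 0.22, 0.07 ± 0.06, 0.08 ± 0.10 and 0.08 ± 0.05. For the ribosomal proteins the SD of WT vehicle was the widest of the 4 groups. Gene by gene, the interaction of assay and group by edgeR passed an adjusted p of 0.1 in 1 of 12785 genes for WT DHPG (0.00782%), 0 for Tsc2+/- vehicle (0.0%) and 2 for Tsc2+/- DHPG (0.0156%). An unadjusted p under 0.05 was reached by 878, 531 and 894 genes in this order. Both genes called, Npcd and Dynll2, were members.

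**Figure D5:**
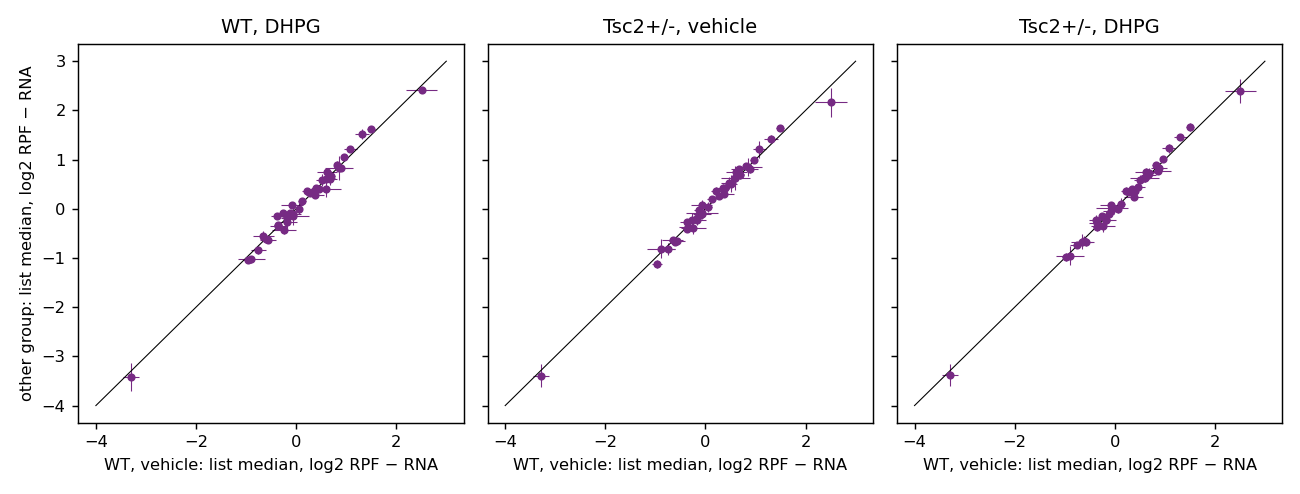
Median TE of each of the 41 gene lists in WT vehicle (x axis) against WT DHPG, Tsc2+/- vehicle and Tsc2+/- DHPG (y axes), as the mean of 3 pairs with SD bars and a line at equal values. The lists lie along the line in all 3 panels, from near -3.3 to above 2.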

How the data were processed

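RNA-seq and ribosome profiling were carried out on the same lysates, and the 6 WT vehicle libraries were analysed, with all 24 for the comparison of groups. Values were the authors' deposited expected counts per gene from RSEM, already whole. Per the study's methods and the submitters' processing notes, the authors trimmed adapters with cutadapt, removed rRNA and tRNA reads with Bowtie2, aligned the rest with TopHat2 to mm10, and for RPFs dropped reads that mapped more than once or repeated a molecular identifier before counting. Every column used had a sample, and 0 were left without one.

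Genes were kept with the filterByExpr function (edgeR 4.0.16, minimum count 10) in both assays, scaled by TMM and tested in R 4.3.3 with the two-sided quasi-likelihood F test of RPF against RNA with replicate number as a block. Benjamini-Hochberg adjustment ran over every gene tested. The same lysate was stated as the source of same-numbered libraries, so the block was kept, although their deviations from the group means correlated weakly (r = -0.03, -0.02 and 0.12 for the same number, -0.12 to 0.13 otherwise). The biological coefficient of variation was 10.6%. Groups were compared by the interaction of assay and group with lysate as a block. The log2 CPM used a prior count of 2. One member, Pcdha6, was not kept by the filter and has no test. The procedure was tested on simulated counts beforehand.

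Lengths, GC content and sequences came from the RefSeq annotation of GRCm38, the build of mm10, for 9787 members, with 1 coding transcript a gene. This was the transcript with the longest coding sequence, and among equals the longest transcript. It was not chosen by abundance, whereas the study took the most abundant isoform for its transcript features. Members, the 41 gene lists and the rules were chosen with earlier results of these data known. Named were the 12 highest and 12 lowest called members with the same sign in all 3 pairs, for each list the highest, the lowest and the most abundant member, a set of 24 genes, and the 5 most abundant genes missing the limit in either assay. Alternatives were no block, DESeq2 1.42.0, other scaling, filters and thresholds, counts per length, halved RPF counts of replicates 2 and 3, and leaving out each replicate. Results for some genes are not reported here.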

Additional observations from a re-analysis of the deposited data

Results flagged for a closer look

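Npcd and Dynll2 stood out because their TE differed between WT vehicle and another group by the interaction test of edgeR. Npcd (neuronal pentraxin with chromo domain) had a TE of -2.70, -2.88 and -2.77 in the 3 WT vehicle pairs. In WT DHPG it averaged -3.45 ± 0.11 (SD, n = 3), a difference of -0.66 ± 0.10 (SE, adjusted p = 0.0018), and in Tsc2+/- DHPG -3.37 ± 0.25, a difference of -0.58 ± 0.10 (adjusted p = 0.0215). In Tsc2+/- vehicle it averaged -3.19 ± 0.14 and was not called (adjusted p = 0.990). Leaving out a replicate changed these calls. The WT DHPG call was lost without replicate 3 (adjusted p = 0.585), the Tsc2+/- DHPG call without replicate 2 (adjusted p = 0.318) or replicate 3 (adjusted p = 0.632), and Tsc2+/- vehicle was called without replicate 1 (-0.44, adjusted p = 0.0885). Only 2.04% of its coding windows are unshared with other genes, so its reads could have been split between genes, and the part of this was not tested.

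Dynll2, a dynein light chain, had a TE of -1.53, -0.96 and -1.03 in WT vehicle and -0.62 ± 0.05 in Tsc2+/- DHPG, a difference of 0.56 ± 0.10 (adjusted p = 0.0486). The call was lost without any one of the replicates, with differences of 0.40 without replicate 1 (adjusted p = 0.251), 0.67 without replicate 2 (adjusted p = 0.242) and 0.60 without replicate 3 (adjusted p = 0.632). In WT DHPG the mean was -0.68 ± 0.08 and in Tsc2+/- vehicle -0.83 ± 0.08, and neither was called.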

How the results depend on the processing

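The numbers of high and low members stayed within 1.5 times of 1626 and 1750 under every alternative run. The lowest came from testing against a 2-fold difference (1148 high, 1393 low). Without the replicate block there were 1625 high and 1740 low members, of which 1612 and 1737 were called with it, and leaving out a replicate gave 1552 to 1687 high and 1715 to 1816 low. Halving the RPF counts of replicates 2 and 3 gave 1607 and 1772, and DESeq2 gave 1651 and 1738. The halved counts were judged on the same 9804 members, so which genes would pass the limit with them was not checked. The genes differing from WT vehicle did depend on the model. With replicate number within assay in place of the lysate as the replicate block there were 12 in place of 2 for Tsc2+/- DHPG and 6 in place of 1 for WT DHPG, and leaving out a replicate gave 0 to 3 for Tsc2+/- DHPG, 0 to 2 for Tsc2+/- vehicle and 0 to 2 for WT DHPG, the causes not tested. Of the list medians, 9 of 41 changed sides of the members' median per length, 4 with coding GC content adjusted and 7 with GC content and length adjusted, the last pair of alternatives being chosen after seeing the data. With a mean count of at least 200, 3 of 41 changed sides. So did 3 of 39 among members of which at least 95% of coding windows occur once. There the medians fell to 1.25 for the proteasome, 1.19 for complex I, 0.80 for complexes II to V and 0.68 for splicing, beside 0.01 for all members. Depth limits genes with few footprints: with a mean count of at least 200 the members fell to 5691 and their median TE was 0.21.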

Other observations

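Further gene groups are given beside all members, of which 16.6% were high and 17.8% low. Cholesterol synthesis genes had a median of 0.31, with 7 high (24.1%) and 2 low (6.90%) of 29 members. Fdps, farnesyl diphosphate synthase, had 149, 136 and 114 RPF CPM against 41.2, 41.5 and 45.8 RNA CPM (TE 1.63 ± 0.13). The desaturase Scd2 had 1186, 1101 and 1030 against 1924, 1924 and 1693 (-0.74 ± 0.10), and its relative Scd1 stood at -2.13 ± 0.13, though 61.8% of the coding windows of Scd1 are unshared. Selenoprotein mRNAs had a median of 0.23, with 1 high and 1 low of 15 (6.67% each), smaller shares than among all members. With GC content and length adjusted their median was 0.04. The low one was Sepw1, with 102, 91.5 and 85.7 RPF CPM against 651, 676 and 843 RNA CPM (TE -2.95 ± 0.12), and the high one was Selk at 1.40 ± 0.12. Collagens and laminins had a median of 0.77, with 4 high (26.7%) and 0 low of 15, and per length 0 were called either way. Of genes often used as references, Actb had 4407, 3777 and 3836 RPF CPM against 1933, 1929 and 2012 RNA CPM (TE 1.03 ± 0.10) and Gapdh 711, 911 and 906 against 621, 663 and 737 (0.32 ± 0.10).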
